A study of Rattus norvegicus with 4 samples.

Results

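A set of 10 genes of macrophages, of their growth factor CSF1 and of the complement system was described across the 2 cell layers of the rat crista ampullaris: Aif1, Csf1, Csf1r, Cd68, C1qa, C1qb, C3, Cx3cr1, Ptprc and Tyrobp. They were taken as every gene probe whose current rat symbol is one of these names, which gave 15 probes for the 10 genes, out of 33849 gene probes and 12323 named genes on the array. The crista ampullaris is the sensory patch of the inner ear that registers head rotation. Laser capture first lifted its superficial layer (hair cells of types I and II, and the supporting cell cytoplasm that lies among them), and a second capture took the bodies of the supporting cells on the basal lamina. Each layer was hybridised to 2 single-colour whole-genome arrays, for which its polyadenylated RNA was amplified linearly. The layer is the only difference between the groups in the labels, the strain, age and treatment of the rats are not given in the sources used here, and whether the 2 arrays of 1 layer stand for different animals or captures is not stated. The p-values therefore measure only the spread between these arrays, which may be technical.

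Macrophages live in most tissues, the inner ear included, where they clear debris and can gather around damaged hair cells. They are maintained by CSF1, a secreted growth factor, which acts through CSF1R, a tyrosine kinase receptor that marks the macrophage lineage. The complement protein C1q is assembled from the A, B and C chains encoded by C1qa, C1qb and C1qc. In many tissues it is made by macrophages, and it starts the classical complement cascade, which cleaves the central component C3.

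The median raw intensity, which is the spot signal after subtraction of the local background, was 26.5 (array 1) and 17.0 (array 2) for the hair cell layer, and 12.1 and 12 for the supporting cell layer. In the same order, 48.8%, 45.6%, 39.8% and 39.7% of the gene probes were above background by the scanner software, so more probes fell below background in the supporting cell layer. After quantile normalization the median log2 change over all tested probes was 0.01, and without any scaling it was -0.67. All changes are log2 differences, supporting minus hair cell layer, with the standard error of the fit and, unless stated, after quantile normalization. Of 13 tested hair cell genes, 11 were called higher in the superficial layer, 0 were higher in the other layer by limma, and 11 reached an unadjusted p under 0.05. Of the 13, 3 entered the test through detection on the hair cell layer arrays alone, which in part set their side. The list was also chosen with earlier results of these data known, so the count describes the layer and is no test of its label. Supporting cell genes were divided, with 7 of 15 called higher in the layer named for them and 5 in the hair cell layer. Over all tested genes, 28.2% and 37.2% were called in the same order. Among the 7 was Vim, which encodes an intermediate filament protein (1.37 ± 0.08, adjusted p = 0.00197). Among the 5 were Otog (-2.29 ± 0.07, adjusted p = 0.00120) and Notch1 (-1.85 ± 0.07, adjusted p = 0.00135). With only 2 arrays a layer, an exact permutation test of a single gene cannot give a two-sided p below 0.333, so the tests rest on the spread pooled across probes by limma.

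Of the 10 genes, 7 had a probe that could be tested. Limma called 3 of them higher in the hair cell layer (Aif1, C1qa and Cd68) and 3 higher in the supporting cell layer (Csf1, Csf1r and Tyrobp), and C3 was not called. Over all 7768 tested genes, 65.4% were called, 37.2% higher in the hair cell layer and 28.2% higher in the supporting cell layer, so calls in both directions are common on this array. By probe, 67.4% of 16483 were called, 33.9% and 33.5% in the same order. Aif1, C1qa, Cd68 and C3 entered the test through detection on the hair cell layer arrays alone, so their side was in part set by that filter. No probe of C1qb, Cx3cr1 or Ptprc was above background on any array.

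**Figure D1:**
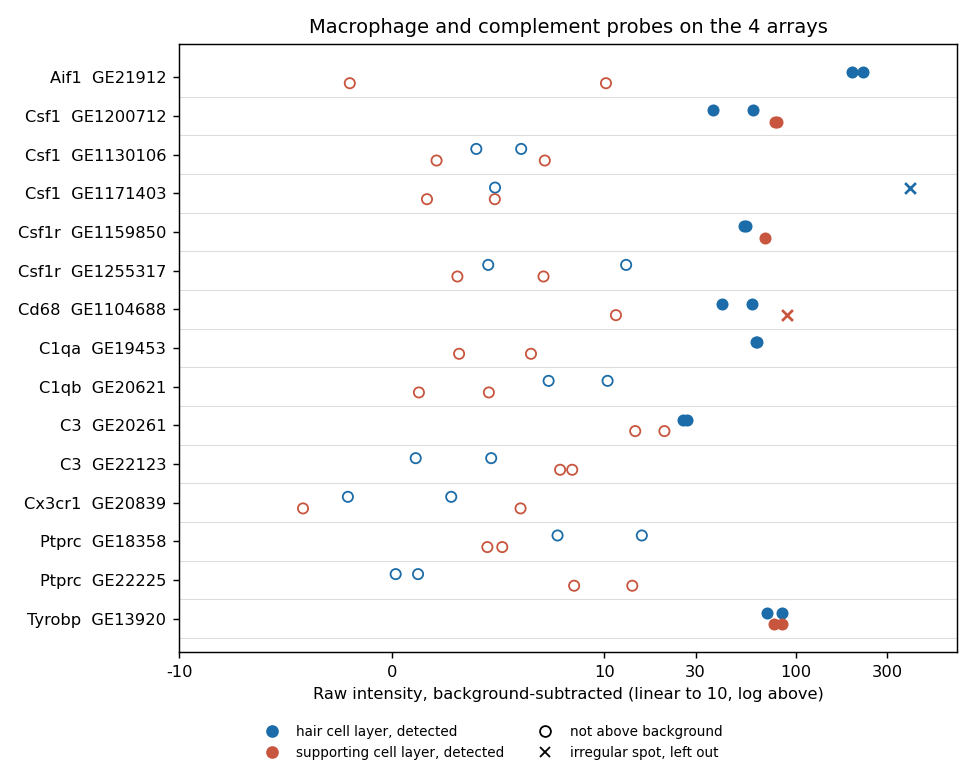
Raw intensity of the 15 probes of the 10 genes on the 4 arrays (horizontal axis, linear up to 10 and logarithmic above), with the hair cell layer in blue and the supporting cell layer in red. Filled circles are detected spots, open circles are spots not above background and crosses are irregular spots left out of the fit. The Aif1 spots of the hair cell layer sit at 224 and 198, while both supporting cell layer spots are open.

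The C1q genes lie next to each other on rat chromosome 5. Their promoters are shown because C1qa and its neighbour C1qc were detected in the hair cell layer while C1qb was not detected at all. The sequences come from RefSeq (build GRCr8), run from 250 bases before to 50 bases after the annotated start and are written 5′ to 3′ on the gene's own strand, the minus strand. Capitals mark matches to GGAAGT or GAGGAA on either strand, 2 short forms of the sequence recognised by PU.1, the ETS-family transcription factor of the macrophage lineage. The motifs were chosen after the sequences had been seen, and the 2 can overlap, since both hold GGAA. The region chr5:154419884-154420183 holds the start of C1qa, with GGAAGT 107 and 79 bases before it. The region chr5:154407778-154408077 holds the start of C1qb, with GAGGAA 247 and 90 bases and GGAAGT 61 bases before it.
C1qa: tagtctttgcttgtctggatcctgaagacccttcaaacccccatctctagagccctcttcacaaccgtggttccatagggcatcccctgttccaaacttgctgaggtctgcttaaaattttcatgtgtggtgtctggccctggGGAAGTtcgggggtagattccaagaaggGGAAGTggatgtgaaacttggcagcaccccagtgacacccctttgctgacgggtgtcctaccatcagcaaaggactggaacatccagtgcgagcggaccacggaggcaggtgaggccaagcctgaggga
C1qb: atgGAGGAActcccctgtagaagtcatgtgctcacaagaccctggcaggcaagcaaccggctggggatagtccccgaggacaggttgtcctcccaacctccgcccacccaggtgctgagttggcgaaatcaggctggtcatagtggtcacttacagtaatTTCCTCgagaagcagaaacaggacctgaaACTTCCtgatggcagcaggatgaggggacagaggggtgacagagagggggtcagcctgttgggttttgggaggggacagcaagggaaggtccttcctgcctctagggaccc
Promoters were in the table for 7 of the 10 genes. At least 1 match was found in 6 of these 7, and matches to both motifs in 3. Among 33469 rat promoters of the same length, 22.6% held GGAAGT, 27.6% GAGGAA, 42.3% either and 7.9% both. A match is a stretch of letters, and binding was not measured. The promoters of the chain that was not detected and of the chain that was detected both hold such stretches.

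Among the macrophage markers, Aif1 encodes IBA1, the actin-binding protein used to stain microglia and macrophages. Its probe had raw intensities of 224 and 198 in the hair cell layer and of 10.2 and -1.97 in the supporting cell layer, where neither spot was above background. The groups did not overlap, as for 49.0% of 7509 genes with the hair cell layer on top and 40.1% with the supporting cell layer on top. Since the lower layer has only a bound, the fold is given as a limit at the lowest detected intensity, which is not a strict bound. On that basis the hair cell layer exceeded the other at least 6.26-fold for Aif1 (fitted change -5.22 ± 1.16, adjusted p = 0.0283). On the raw scale with no scaling between arrays the limit was at least 10.8-fold. The call was lost when either hair cell layer array was left out (adjusted p = 0.131 without replicate 1 and 0.134 without replicate 2), with the fitted change at -5.31 and -5.14. With no filter on dim probes the Aif1 call was lost as well (adjusted p = 0.0836). Detection in both arrays of the hair cell layer and in neither of the supporting cell layer was seen for 1066 of the 12323 named genes (8.65%), and the reverse for 215 (1.74%).

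Cd68 encodes a glycoprotein of the lysosome membrane that is abundant in phagocytes. Its raw intensities were 58.8 and 41.1 in the hair cell layer and 11.5, below background, on supporting cell layer replicate 1. The spot on supporting cell layer replicate 2 read 90.3 but was marked irregular by the scanner software and was left out, so the supporting cell layer is represented by 1 array. On that basis Cd68 was higher by at least 1.5-fold in the hair cell layer (fitted change -1.37 ± 0.17, adjusted p = 0.0179). With the irregular spot kept, the change turned to 0.11 ± 1.13 (adjusted p = 0.934). The call was also lost without hair cell layer replicate 1 (adjusted p = 0.0843) and without replicate 2 (adjusted p = 0.0777). Other settings that lost the call were the floor at the highest detection limit (-0.50), the scanner software's scaling (-1.28) and no filter on dim probes (-1.37). The side on which Cd68 was higher thus depends on 1 spot, and its call also on the processing.

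Tyrobp encodes DAP12, an adaptor through which activating receptors such as TREM2 signal in macrophages and natural killer cells. Its probe was detected on all 4 arrays, with raw intensities of 84.7 and 71.2 in the hair cell layer and 85.1 and 76.7 in the supporting cell layer, which overlap. After quantile normalization they were 63.6 and 64.2 against 108 and 101, with no overlap, and Tyrobp was 1.64-fold higher in the supporting cell layer (0.71 ± 0.08, adjusted p = 0.00598). Without scaling the change was 0.06 ± 0.16 (adjusted p = 0.768). The call held in each of the 4 fits that left out 1 array. It was lost with the scanner software's own scaling (0.87, adjusted p = 0.118) and with no filter on dim probes (adjusted p = 0.0600).

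Ptprc encodes CD45, the phosphatase carried by all nucleated blood cell types, and Cx3cr1 encodes the receptor of the chemokine fractalkine on macrophages and microglia. The Ptprc probe GE18358 read 15.7 and 7.80 in the hair cell layer and 4.5 and 5.20 in the supporting cell layer, and GE22225 read 1.24 and 0.188 against 14.0 and 8.58. The Cx3cr1 probe read -2.06 and 2.80 against 6.06 and -4.17. All 12 of these spots were below background. The lowest detected raw intensity was between 18.9 and 20.3 on the 4 arrays, so a level under that was not measurable here, and neither gene can be called absent from a layer.

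For the growth factor, the Csf1 probe GE1200712 was detected on all 4 arrays, with raw intensities of 59.8 and 37.1 in the hair cell layer and 79.7 and 77.6 in the supporting cell layer. Both supporting cell layer arrays were above both hair cell layer arrays. After normalization Csf1 was 2.67-fold higher in the supporting cell layer (1.41 ± 0.17, adjusted p = 0.00765). The call held in all 4 fits that left out 1 array. With no scaling the direction was the same (0.74) and the adjusted p was 0.0711. The other 2 Csf1 probes gave no value for the gene. The probe GE1130106 read between 2.11 and 7.20 on the 4 arrays, all below background, and GE1171403 read 4.86, 4.85 and 1.66 below background on 3 arrays. On hair cell layer replicate 1, GE1171403 read 397 at a spot marked irregular. The probes of Csf1 therefore disagreed on whether the transcript was detected at all.

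The receptor gene Csf1r had 1 usable probe, GE1159850, with raw intensities of 53.5 and 54.9 in the hair cell layer and 69.5 on supporting cell layer replicate 2. Its spot on supporting cell layer replicate 1 was missing through a manufacturing fault, so the fit rests on 1 array of that layer, assumed to vary like the others. The change was 1.05 ± 0.22, 2.07-fold higher in the supporting cell layer (adjusted p = 0.0459). Without scaling the change was 0.36 (adjusted p = 0.157). The call was lost without hair cell layer replicate 1 (0.88, adjusted p = 0.117) or replicate 2 (1.21, adjusted p = 0.0897), with the scanner software's scaling (0.0795) and with no filter on dim probes (0.163), and no fit is possible without supporting cell layer replicate 2. The other Csf1r probe, GE1255317, read between 3.09 and 13.0 and was below background on every array. Ligand and receptor thus had the same sign, but only the ligand's call held when single arrays were left out.

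**Figure D2:**
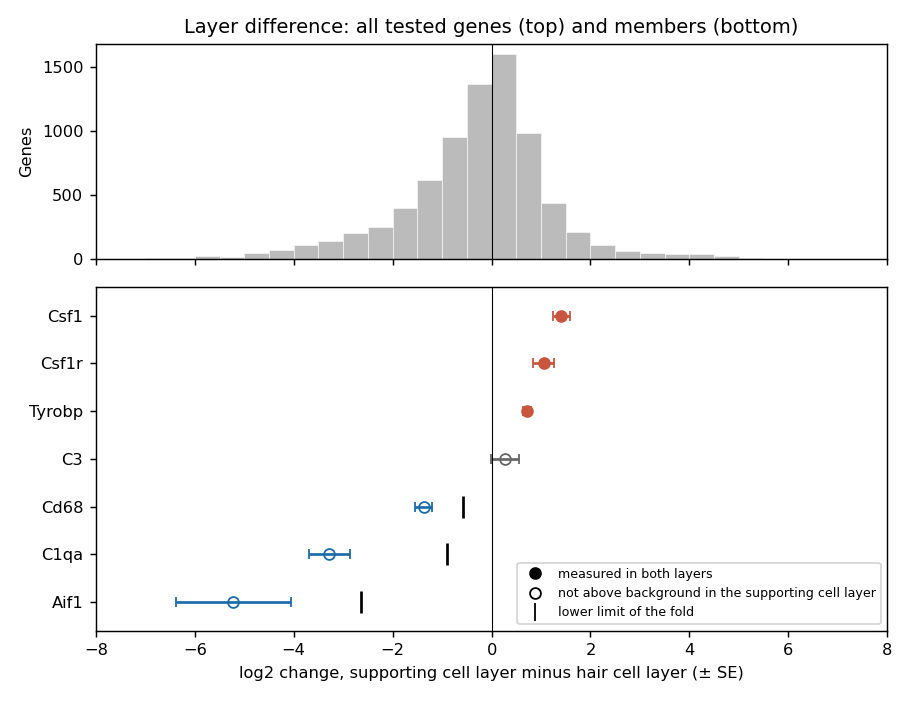
Layer difference of the 7 tested genes (lower panel, log2 change, supporting minus hair cell layer, ± SE of the limma fit) under a histogram of the same change in all 7768 tested genes (upper panel). Open circles mark genes below background in the supporting cell layer. For Cd68, C1qa and Aif1 the black bars give the lower limit of the fold. Csf1, Csf1r and Tyrobp lie right of 0, at 1.41, 1.05 and 0.71.

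Of the complement genes, C1qa read 61.9 and 62.8 in the hair cell layer and 6.55 and 3.17 in the supporting cell layer, where it was not above background. The groups did not overlap, and C1qa was higher by at least 1.86-fold in the hair cell layer (fitted change -3.28 ± 0.42, adjusted p = 0.00825), or at least 3.21-fold on the raw scale. Leaving out hair cell layer replicate 1 or 2 moved the adjusted p to 0.0561 and 0.0630. C1qc, the third chain and not one of the 10 genes, was detected on the same 2 arrays (36.8 and 34.1 against 5.64 and 7.85). It was called (adjusted p = 0.00873), but with the lowest detected intensity as the bound its fold had no lower limit above 1, and the call was lost without hair cell layer replicate 1 (adjusted p = 0.0501) or 2 (adjusted p = 0.0624). C1qb read 10.4 and 7.38 against 1.28 and 4.57, below background everywhere. C1qb thus gives no measurement to set beside the other chains.

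C3 encodes the component on which all complement pathways converge. Its probe GE20261 was just detected in the hair cell layer (25.9 and 27.1) and was below background in the supporting cell layer (14.5 and 20.6). Quantile normalization turned these into 17.0 and 24.2 against 20.7 and 29.0, which overlap, and the change was 0.27 ± 0.28 (adjusted p = 0.435). No fold is given, since the bound for the supporting cell layer lies above the hair cell layer's mean. The sign turned without scaling (-0.61, adjusted p = 0.0648). A probe for the same transcript, GE22123, read 4.68 and 1.13 against 7.92 and 8.49, all below background.

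**Figure D3:**
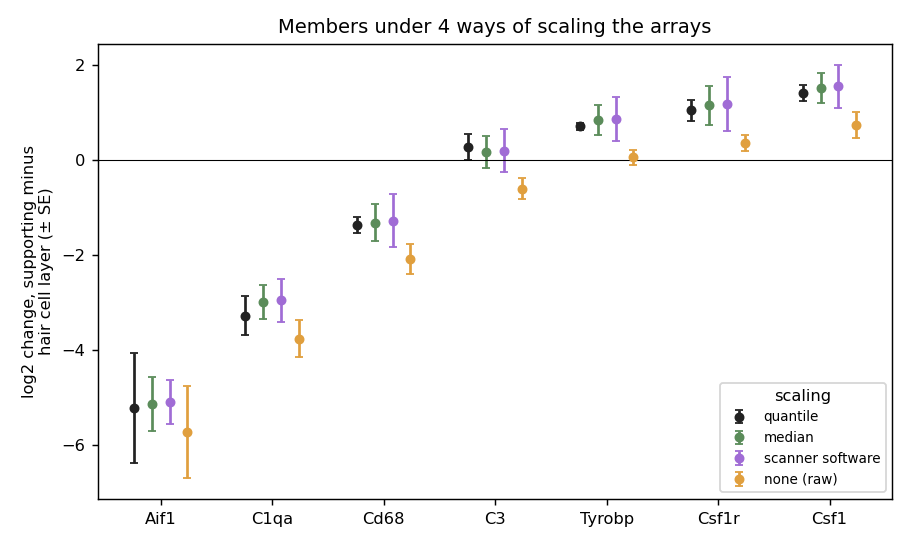
Log2 change (supporting minus hair cell layer, ± SE) of the 7 tested genes under quantile normalization, scaling to the median, the scanner software's normalized intensity and no scaling. Aif1, C1qa and Cd68 stay below 0 under all 4, Csf1, Csf1r and Tyrobp stay above 0 (Tyrobp at 0.06 without scaling), and C3 changes sign from 0.27 to -0.61.

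Beyond these 10, 26 other macrophage genes had a probe, of which 10 were tested, with 4 called on the supporting cell side and 3 on the hair cell side (median change -0.03, against -0.10 over all tested genes). Calls of 7 in 10 are near the share of 65.4% over all tested genes. On the hair cell side, Clec10a, a galactose-binding lectin of macrophages, read 173 and 140 against 20.0 and 13.7 below background and was at least 4.53-fold higher (adjusted p = 0.00367). Lcp1, the leukocyte actin-bundling protein plastin, read 74.6 and 45.0 against 7.91 and 1.10 and was at least 1.74-fold higher (adjusted p = 0.0446). Ncf1, a subunit of the phagocyte NADPH oxidase, read 56.5 and 55.2 against 17.6 and 20.6 and was at least 1.64-fold higher (adjusted p = 0.0206). All 3 genes entered the test through detection on the hair cell layer arrays alone, so their side was in part set by that filter, and they could not be tested with detection on all 4 arrays. The Clec10a call held under the 14 alternatives that could be fitted. Those of Lcp1 (0.194 and 0.158) and Ncf1 (0.0524 and 0.0792) were lost in adjusted p when hair cell layer replicate 1 or 2 was left out, and that of Ncf1 also without supporting cell layer replicate 1 (0.0629), with median scaling (0.0524) or the scanner software's (0.193). With no filter on dim probes both were lost (0.116 for Lcp1 and 0.0916 for Ncf1).

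On the supporting cell side, Adgre1 encodes F4/80, the classical surface marker of rodent macrophages. It read 65.1 and 55.2 in the supporting cell layer and 5.18 and 9.56 below background in the hair cell layer, and was at least 4.84-fold higher (adjusted p = 0.00862). Lgals3, the galactose-binding galectin-3, read 32.2 and 36.6 against 22.2 and 18.3 below background and was at least 2.69-fold higher (adjusted p = 0.00430). Both limits are for normalized values, and no raw-scale limit was computed on this side. With the floor at the highest detection limit the fitted changes were 1.46 for Adgre1 and 0.66 for Lgals3. As folds, both are below the 4.84 and 2.69 given above, which are therefore not strict bounds. Cd53, a leukocyte tetraspanin, was detected on all arrays (123 and 121 against 96.2 and 72.1) and was 2.31-fold higher (1.21 ± 0.09, adjusted p = 0.00285), although not without scaling (0.55, adjusted p = 0.0619). F4/80 and IBA1 transcripts, both taken as macrophage markers, were thus detected in opposite layers. Adgre1 and Lgals3 entered the test through detection on the supporting cell layer arrays alone, which in part set their side. Their calls held under the 14 alternatives that could be fitted, which do not include detection on all 4 arrays.

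Gpnmb, a glycoprotein of phagocytes and pigment cells, read 298 and 254 in the hair cell layer and 271 and 238 in the supporting cell layer, which overlap. Its normalized change of 0.58 ± 0.08 (adjusted p = 0.0105) reversed to -0.12 without scaling and lost its call without hair cell layer replicate 1 (adjusted p = 0.0595) or 2 (adjusted p = 0.0620). Laptm5, a lysosomal membrane protein of blood cells, read 626 and 511 against 280 and 292 and was not called (-0.28 ± 0.10, adjusted p = 0.0766). It was called higher in the hair cell layer with detection on all 4 arrays (adjusted p = 0.0336) and with the floor at the highest detection limit (0.0499). Itgam, the CD11b integrin chain, and the endotoxin co-receptor Cd14 were detected on all 4 arrays and were not called (-0.65 ± 0.20, adjusted p = 0.0578, and 0.23 ± 0.21, adjusted p = 0.384). The probes of 13 of the 26 genes were above background on no array, including those of Cd163, Ctss, Cybb, Fcer1g, Lyz2, Trem2 and P2ry12. Fewer macrophages and less RNA per macrophage cannot be told apart in captured tissue.

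All 6 tested genes of antigen presentation, out of 12 with a probe, were called, 5 of them higher in the supporting cell layer and 1 lower there (median 0.75). Calls were also common over all tested genes, at 65.4%, with 28.2% on the supporting cell side and 37.2% on the hair cell side. The median change there was -0.10. RT1-Ba, a class II alpha chain, read 33.1 and 32.8 in the hair cell layer and 55.8 and 51.5 in the supporting cell layer, and was 2.73-fold higher in the latter (1.45 ± 0.17, adjusted p = 0.00726). Cd74, the class II invariant chain, read 35.0 and 23.0 (the latter below background) against 33.0 and 37.3 and was 2.05-fold higher after normalization (1.04 ± 0.11, adjusted p = 0.00584), with 0.31 (adjusted p = 0.331) without scaling. RT1-DMb, a chain of the chaperone that loads peptide onto class II molecules, went the other way, at 220 and 201 in the hair cell layer against 24.0, marked below background, and 24.7, detected, in the other (-2.38 ± 0.07, adjusted p = 0.00118). The RT1-Ba call held under every alternative run, and that of RT1-DMb under the 14 that could be fitted, which do not include detection on all 4 arrays.

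Cd80, also called higher in the supporting cell layer, changed by 0.73, with only 1 hair cell layer array in the fit. It read 26.4 on hair cell layer replicate 2 against 29.0 and 30.9 in the supporting cell layer. Its spot on hair cell layer replicate 1 read 81.1 but was marked contaminated and below background, and was left out. The Cd80 change was not followed singly through the alternatives. The calls of B2m and Cd40 depended on single arrays and on scaling. B2m, the light chain of class I molecules, changed by 0.76 ± 0.20 (adjusted p = 0.0427), and by 0.00 without scaling, and its call was lost without hair cell layer replicate 1 (adjusted p = 0.101), supporting cell layer replicate 1 (0.129) or 2 (0.0773). The costimulatory receptor gene Cd40 changed by 0.34 ± 0.09 (adjusted p = 0.0405), its call was lost on leaving out any 1 array (adjusted p from 0.0791 to 0.142), and it reversed to -0.33 without scaling. With 1 array left out, 3 to 4 of the 6 genes were called. The other 6 genes of the list, Ciita, RT1-Bb, RT1-Da, RT1-Db1, RT1-DMa and Cd86, were below background on every array.

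**Figure D4:**
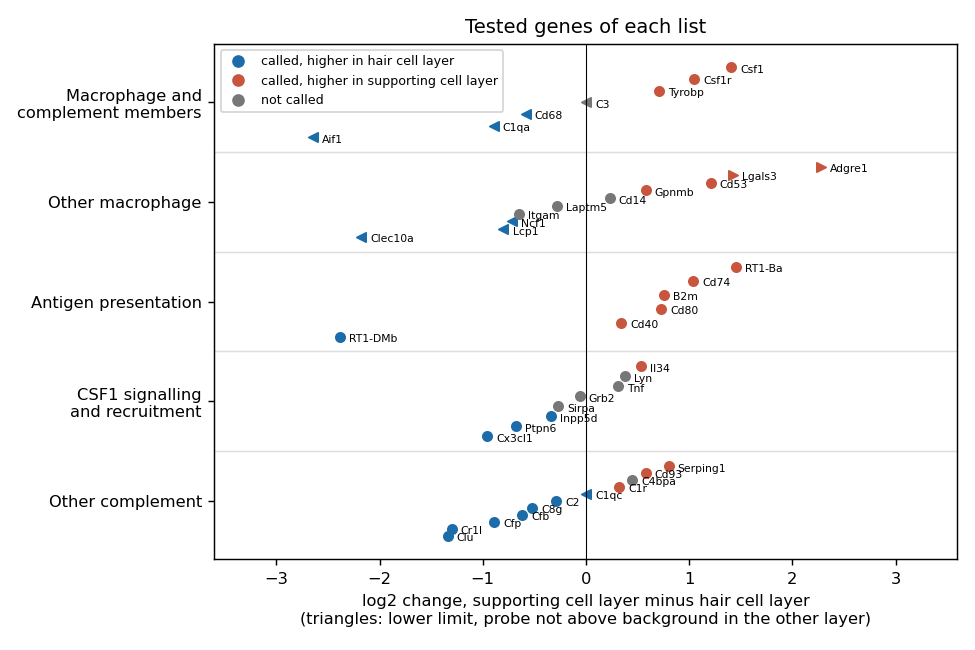
Log2 change (supporting minus hair cell layer) of each tested gene in the 5 lists, with blue for genes called higher in the hair cell layer, red for the supporting cell layer and grey for genes not called. Triangles give the lower limit of the fold where the gene was not above background in 1 layer, and C3 and C1qc are drawn at 0 because they have no lower limit above 1. Called genes lie on both sides of 0 in every list.

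Of the 23 other genes of CSF1 signalling and macrophage recruitment with a probe, 8 were tested, with 3 called on the hair cell side and 1 on the supporting cell side (median -0.16). Il34, the second ligand of CSF1R, read 380 and 330 in the hair cell layer and 328 and 299 in the supporting cell layer. Its normalized change of 0.53 ± 0.07 (adjusted p = 0.00902) turned to -0.18 without scaling, and the call was lost without hair cell layer replicate 1 (adjusted p = 0.0527) or 2 (0.0522). Cx3cl1 encodes fractalkine, the ligand of the undetected Cx3cr1. It read 790 and 598 in the hair cell layer against 226 and 205, with no overlap, and was 1.95-fold higher there (-0.96 ± 0.12, adjusted p = 0.00719), though not called with the scanner software's scaling (-0.86, adjusted p = 0.124). The receptor's ligand was thus detected on all 4 arrays, while the receptor was below background on all of them.

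Ptpn6, the phosphatase SHP-1, read 736 and 627 against 293 and 231 and was 1.6-fold higher in the hair cell layer (-0.68 ± 0.13, adjusted p = 0.0185). Inpp5d, the lipid phosphatase SHIP1, read 140 and 117 against 65.2 and 62.7 (-0.34 ± 0.07, adjusted p = 0.0240). Both dampen signalling from receptors of blood cells. The Ptpn6 call was lost without hair cell layer replicate 1 (adjusted p = 0.0980) or 2 (0.0893), and the Inpp5d call on leaving out any 1 array (0.0691 to 0.0996). Grb2, an adaptor used by CSF1R and many other receptors, read 1427 and 1250 against 834 and 757 and was not called (-0.06 ± 0.07, adjusted p = 0.507). The 3 of 8 genes called on the hair cell side are near the 37.2% of all tested genes, and the median of -0.16 is near the -0.10 of all tested genes. With hair cell layer replicate 1 or 2 left out, 1 gene of the list was called.

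Among 31 other complement genes with a probe, 11 were tested, with 7 called on the hair cell side and 3 on the supporting cell side (median -0.52, or -0.29 with genes undetected in a layer set at their limit). The shares over all tested genes were 37.2% and 28.2% in the same order. Clu encodes clusterin, a chaperone that also blocks the terminal complement complex. It read 383 and 359 in the hair cell layer and 94.8 and 90.2 in the supporting cell layer and was 2.52-fold higher in the former (-1.34 ± 0.08, adjusted p = 0.00203). Cr1l encodes Crry, a membrane regulator that protects rodent cells from C3 cleavage products, and read 2755 and 2381 against 680 and 637 (-1.30 ± 0.07, adjusted p = 0.00183). The Clu and Cr1l calls held under every alternative run. Cfb, which encodes factor B of the alternative pathway, read 2461 and 2336 against 998 and 953 (-0.62 ± 0.08, adjusted p = 0.00836), and was not called after scaling to the median (-0.52, adjusted p = 0.187). Cfp encodes properdin, the stabiliser of the alternative pathway convertase, and read 261 and 246 against 94.6 and 78.9 (-0.89 ± 0.11, adjusted p = 0.00809), a call lost without hair cell layer replicate 1 (0.0502) or 2 (0.0552).

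On the other side, Serping1, the inhibitor of the C1 proteases, read 206 and 186 in the supporting cell layer and 190 and 173 in the hair cell layer, which overlap, and was 1.75-fold higher after normalization (0.80 ± 0.08, adjusted p = 0.00477). Without scaling its change was 0.11 (adjusted p = 0.502). C1r, one of these proteases, changed by 0.32 ± 0.08 (adjusted p = 0.0381), and its call was lost on leaving out any 1 array (0.0610 to 0.144). Cd93, a surface lectin of endothelial and myeloid cells, changed by 0.58 ± 0.16 (adjusted p = 0.0492), and its call was lost without hair cell layer replicate 1 (0.0941) and supporting cell layer replicates 1 (0.141) and 2 (0.108). The changes of C1r and Cd93 reversed without scaling, to -0.32 and -0.09. Of the complement genes, 16 were above background on no array, among them C5, Cfd and the lectin pathway genes Masp1, Masp2, Mbl1 and Mbl2.

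For the 2 member genes detected on all 4 arrays, the nearest patterns were sought among 38 probes of the same lists, as the Euclidean distance between log2 values centred on each probe's mean. The nearest to Csf1 were Cd53 at 0.28, Cd74 at 0.44 and Lgals3 at 0.48. The nearest to Tyrobp were Serping1 at 0.10, Gpnmb at 0.14 and Il34 at 0.19. These distances describe 4 arrays only.

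Markers of other cells also differed between the layers. The shares to set beside their counts are those over all tested genes, 28.2% called on the supporting cell side and 37.2% on the hair cell side. Of 9 tested endothelial genes, 7 were called on the supporting cell side and 1 on the hair cell side. The receptor gene Tie1 read 326 and 307 against 47.3 and 42.0 (3.54 ± 0.09, adjusted p = 0.00115), while Vwf went the other way (359 and 364 in the hair cell layer against 45.8 and 36). The unscaled summed raw intensity of the endothelial list was 1256 and 1132 in the hair cell layer and 2374 and 1179 in the supporting cell layer, where the value of 1179 leaves out Cldn5, whose spot gave no value on that array. Of the 4 red cell genes with a probe, Ahsp, the alpha-globin chaperone, was at least 7.67-fold higher in the supporting cell layer after normalization (raw 103 and 89.1 against 5.26 and 3.08, adjusted p = 0.00142). Epb42 was below background on every array, and the unscaled list sum was 185 and 168 in the supporting cell layer against 58.6 and 82.0. Of 6 tested fibroblast genes, 3 were called on the supporting cell side and 1, Fbn1, on the hair cell side (at least 1.36-fold). Mgp, a matrix protein of connective tissue, read 543 and 482 in the supporting cell layer against 178 and 157 (2.31 ± 0.08, adjusted p = 0.00123), and the transcription factor gene Tbx18 read 559 and 534 against 195 and 166 (2.31 ± 0.07, adjusted p = 0.00117). The collagen gene Col1a2 changed by 0.97 ± 0.09 (adjusted p = 0.00453), Lum, Pdgfra and Postn were below background on every array, and the unscaled sum was 1807 and 1740 against 1318 and 1165. Of 6 tested genes of Schwann cells and glia, 2 were called on each side. The 7 endothelial genes, Ahsp and the 3 fibroblast genes thus moved in the same direction as Csf1, Csf1r, Tyrobp and Adgre1, and their part in those results was not tested. Ahsp, Adgre1 and the endothelial genes Emcn and Rgs5 entered the test through detection on the supporting cell layer arrays alone, which in part set their side. Fbn1 entered it through the hair cell layer arrays alone.

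Of 17 genes of other leukocytes with a probe, 13 were above background on no array, including Cd3d, Cd8a, Nkg7, Mpo and S100a8. None of the 4 tested was called by limma, and 0 reached an unadjusted p under 0.05, where 65.4% of all tested genes were called. The T cell gene Cd3e read 53.8 and 53.1 in the hair cell layer and 8.41 and 18.5, below background, in the supporting cell layer (adjusted p = 0.101). Cd79b, a B cell receptor chain, and the neutrophil gene S100a9 had changes of the opposite sign (0.33 ± 0.14, adjusted p = 0.112, and 0.24 ± 0.23, adjusted p = 0.397), and the median of the tested genes was 0.05. The unscaled raw sum of the list was 413 and 347 in the hair cell layer and 197 and 236 in the supporting cell layer, on a scale where the median of all probes is also lower in the latter (-0.67). The part of these cells in the Aif1, C1qa and Clec10a results was not tested.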

How the data were processed

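Each deposited scanner file gave, per spot, a raw intensity already corrected for local background and a quality mark. CodeLink Expression Analysis 4.0.0.23520 produced these values, per the file headers. The labels give no later step. The labels' protocols describe laser capture, column extraction, linear amplification and biotin-labelled cRNA stained with a dye. Probes were named from the platform annotation, with symbols updated through gene identifiers to RefSeq (GRCr8): 16912 of 33849 gene probes had 1 gene, 165 had several, 10 had conflicting names and 16762 had none named here. The deposited series table was used to link probes to that annotation. Its column for supporting cell layer replicate 2 equalled the scanner values in 3 of 35125 rows as aligned and in 35029 after a shift of 2 rows, so its values were not used.

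From the deposited intensity values, control spots and spots marked contaminated, irregular or missing through manufacturing were left out (contaminated or irregular: 621 and 48 on the 2 arrays of the hair cell layer, 106 and 216 on those of the supporting cell layer). Intensities were quantile-normalized between arrays, values under 0.1 of the normalized median were set to that floor (1.65), and log2 values were used. The 16483 probes detected on at least 2 of 4 arrays, with a value in each layer, were tested with limma 3.58.1 in R 4.3.3 (no block, two-sided, Benjamini-Hochberg adjustment across them), with an adjusted p under 0.05 as the threshold of a call. Of the probes, 67.4% were called. A gene took the value of its brightest tested probe. For a probe below background in a layer, the lower limit of the fold set the other layer's mean against the lowest detected intensity of each array (13.9, 18.5, 26.6 and 28.3 after normalization) or the probe's own value, whichever was higher. The lowest detected intensity is not a strict bound, since some spots marked below background read above it. Cfi, for example, read 21.1 after normalization on hair cell layer replicate 1 and was marked below background. With the floor at the highest detection limit, some fitted folds were smaller than the limits given. The tests were also run on simulated log2 values with independent noise of the fitted spread. Those values held no background marks, floor, left-out spots or differences of scale, so the effect of these was not checked. The number of arrays limits the precision.

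The 10 genes and all lists were chosen with earlier results of these data known. Picked beside them were, in each other list, up to 4 called genes a direction detected on all arrays, up to 3 a direction undetected in 1 layer, and the 2 brightest tested. All picks are named for the other macrophage, antigen presentation, CSF1 and complement lists. In the lists of other cell types only some picks are named, and none of those for hair cells. Itgam, Cd14, Cd74, Cd80, Cd3e, Cd79b, the counted undetected genes, the motifs and the promoters printed were chosen after values were seen. The layers share the replicate numbers 1 and 2, and the labels do not state a pairing. Deviations of same-numbered arrays from their layer means did not correlate after normalization (r = 0.00 over 15984 probes). That value cannot show whether same-numbered arrays share animals. The numbers were not taken as pairs, and a block on them was run as an alternative. Alternatives were other scalings (the median, the scanner software's, none), no filter on dim probes, detection on all 4 arrays, a floor at the highest detection limit or at 0.5 of the median, an intensity trend, the mean over probes, the replicate number as a block, leaving out each array, and keeping irregular spots. Keeping irregular spots and raw intensity without scaling were added after seeing the data.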

Additional observations from a re-analysis of the deposited data

Results flagged for a closer look

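Among the probes of the 10 genes, signal above that of the negative control spots was seen at 2 spots that the fit left out. On hair cell layer replicate 1 the Csf1 probe GE1171403 read a raw intensity of 397 at a spot marked irregular, against a 95th percentile of 20.1 for the negative control spots of that array, while the same probe was below background on the other 3 arrays. On supporting cell layer replicate 2 the Cd68 probe GE1104688 read 90.3 at an irregular spot, against a 95th percentile of 12.2, while its spot on the other array of that layer read 11.5 and was below background.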

How the results depend on the processing

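The counts of calls fell under several alternatives. Over all probes, 11112 were called (5585 on the hair cell side, 5527 on the supporting cell side), and 6886 (3645 and 3241) with the scanner software's scaling, 6654 (3377 and 3277) with no filter on dim probes. Detection on all 4 arrays, which tests fewer probes, gave 3598 higher in the hair cell layer, and no scaling gave 8846 and 2366. Of the 10 genes, 6 were called, and 3 (1 higher in the supporting cell layer) with the scanner software's scaling, 2 (1 in each direction) with no filter, 2 (0 higher in the hair cell layer, where none of Aif1, C1qa and Cd68 could be tested) with detection on all 4 arrays, and 3 (0 higher in the supporting cell layer by limma, 0 at an unadjusted p under 0.05) with no scaling. Calls among the other macrophage genes fell from 7 to 4 with detection on all 4 arrays. Antigen presentation calls fell from 6 to 3 with median scaling, the scanner software's scaling, no filter, detection on all 4 arrays, the replicate block and irregular spots kept, and to 2 with no scaling. CSF1 signalling and recruitment calls fell from 4 to 1 with median scaling or no filter and to 0 with the scanner software's scaling (0 at an unadjusted p under 0.05). The other complement calls fell from 10 to 4 with median scaling and to 3 with the scanner software's. Leaving out 1 array gave 7215 to 9994 calls in all (3270 to 5532 higher in the hair cell layer, 3916 to 4462 in the supporting cell layer), 2 to 5 of the 10 genes (0 to 3 and 2 to 3 by direction), 4 to 7 macrophage, 3 to 4 antigen presentation, 1 to 4 CSF1 and 4 to 8 complement calls. The lowest total, 7215, and the 0 among the genes higher in the hair cell layer came without hair cell layer replicate 1, and without replicate 2 the values were 7403 and 0.

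Signs reversed for Cd68 with irregular spots kept (0.11), for Grb2 with median scaling (0.03), the scanner software's scaling (0.06) and the mean over probes (0.03), and with no scaling for C3 (-0.61), Gpnmb (-0.12), B2m (0.00), Cd40 (-0.33), Il34 (-0.18), Cd93 (-0.09) and C1r (-0.32). With no scaling the median change of all probes was -0.67. The cause of these changes was not tested. With the replicate block, a pairing that the labels do not state, Cd68 (-1.49) and Csf1r (0.88) were no longer called. Aif1, C1qa, Csf1 and Tyrobp still were (adjusted p = 0.0489, 0.0316, 0.0261 and 0.0309). Single genes followed through the settings were 49. They were the tested members, Cd74 and the picks of the macrophage, antigen presentation, CSF1, complement, hair cell and endothelial lists. Some of these are not named in the text, and genes of the remaining lists, such as Vim, Ahsp and Mgp, were not followed. Across the 49 genes and all settings, 577 of 714 values kept their sign and side of the threshold. Normexp on spot means and a slide or scan-date block were not run, because the files used here give no such columns. Signal over background limits the supporting cell layer most, with 39.7% and 39.8% of probes detected.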
